A study of Homo sapiens with 12 samples.

Results

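The baseline transcriptome of HT29 cells, a colorectal adenocarcinoma line that carries mutant p53, was described from the 4 arrays of cells that received the control siRNA siLUC. They were chosen by their sample labels and make up 4 of the 12 arrays of the HT29 experiment. siLUC is a double-stranded RNA against luciferase, a gene that human cells lack, so these cells went through the same transfection as the 4 arrays of siLRH-1 #1 and the 4 of siLRH-1 #2, in which the nuclear receptor LRH-1 (gene NR5A2) was targeted. Every group was reverse-transfected with siRNA at 5 nM using a lipid reagent, and RNA was taken 24 h later. The sources call the 4 samples of a group independent biological replicates. No untransfected cells were among the 12 arrays, so the values below belong to transfected cells of 1 line.

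The epithelium of the large intestine holds absorptive colonocytes, mucus-producing goblet cells, hormone-producing enteroendocrine cells and the stem cells of the crypt, which renew it under Wnt signalling. Lines such as HT29 come from tumours of this epithelium, divide indefinitely in culture and keep some of its genes active. Tumour cells are also known for using large amounts of glucose and for making their own fatty acids.

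The arrays were Illumina HumanHT-12 v4 BeadChips, and each value is the log2 of a probe's signal after quantile normalization, a step that gives all arrays nearly the same distribution. A difference of 1 is therefore a doubling of the signal. The table held 16381 probes, and the annotation used here gave 1 symbol to 9756 of them, several to 4 and none to 6621. The named ones covered 7331 genes, and where a gene had several probes the one with the highest mean over the 12 arrays was used. Probes that were not detected in any sample had been taken out before deposit, and genes without a named probe in the annotation used here, NR5A2 among them, were not analysed here. A measured gene below is one with a named probe. Probes differ in how strongly they bind, so the place of a signal among all probes is a description of that probe, and it does not order genes by their amount of mRNA.

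Over the 4 siLUC arrays the mean signal of a probe had a median of 6.55, with the 5th percentile at 5.96 and the 95th at 11.48, and the brightest probe reached 14.64. All probes below that median lay between 5.46 and 6.55, near the lower end of the scale. Each gene is given below with its mean and SD over the 4 arrays (n = 4) or with all 4 values in the order of replicates 1 to 4. Of the 7331 genes, 958 (13.1%) lay among the top 10% of all probes, which began at 10.29, and 4750 (64.8%) lay above the median of all probes. These shares are the background for the lists that follow.

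The 4 arrays were close to each other. Their medians lay between 6.56 and 6.57, and the correlation between 2 of them over all probes lay between 0.99671 and 0.99722 (Pearson's r). No 2 arrays held identical values (0 pairs). The median SD of a probe was 0.0859, against 0.0861 over the 4 siLRH-1 #1 arrays and 0.0900 over the 4 siLRH-1 #2 arrays. Over the 3 arrays of siLRH-1 #2 without replicate 2 it was 0.0817. Leaving out 1 siLUC array likewise gave 0.0795 to 0.0817.

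The cells carried the markers of epithelium. EPCAM, the epithelial adhesion molecule by which carcinoma cells are commonly caught, had signals of 13.54, 13.39, 13.42 and 13.45. KRT8 and KRT19, keratins of simple epithelia, averaged 12.58 ± 0.09 and 12.59 ± 0.06, KRT18 averaged 10.11, and the adherens junction protein CDH1 averaged 10.06. Of 10 measured markers of colonocytes and epithelium, 9 were above the median of all probes. Of 12 listed markers of mesenchyme and endothelium, 4 had a named probe, and none of these was a marker of endothelium. They lay at the bottom of the scale, with 0 of 4 above the median. These were COL1A2 at 5.95, ACTA2 at 6.18 and DCN and LUM at 6.22. Of the leukocyte markers, MS4A1 (6.14) and CD14 (6.26) were below the median and CD68 was at 7.65. Albumin (ALB), the only liver marker with a named probe, was at 7.16, and it was the single member of the liver, pancreas and neural list (5 measured) above the median.

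**Figure D1:**
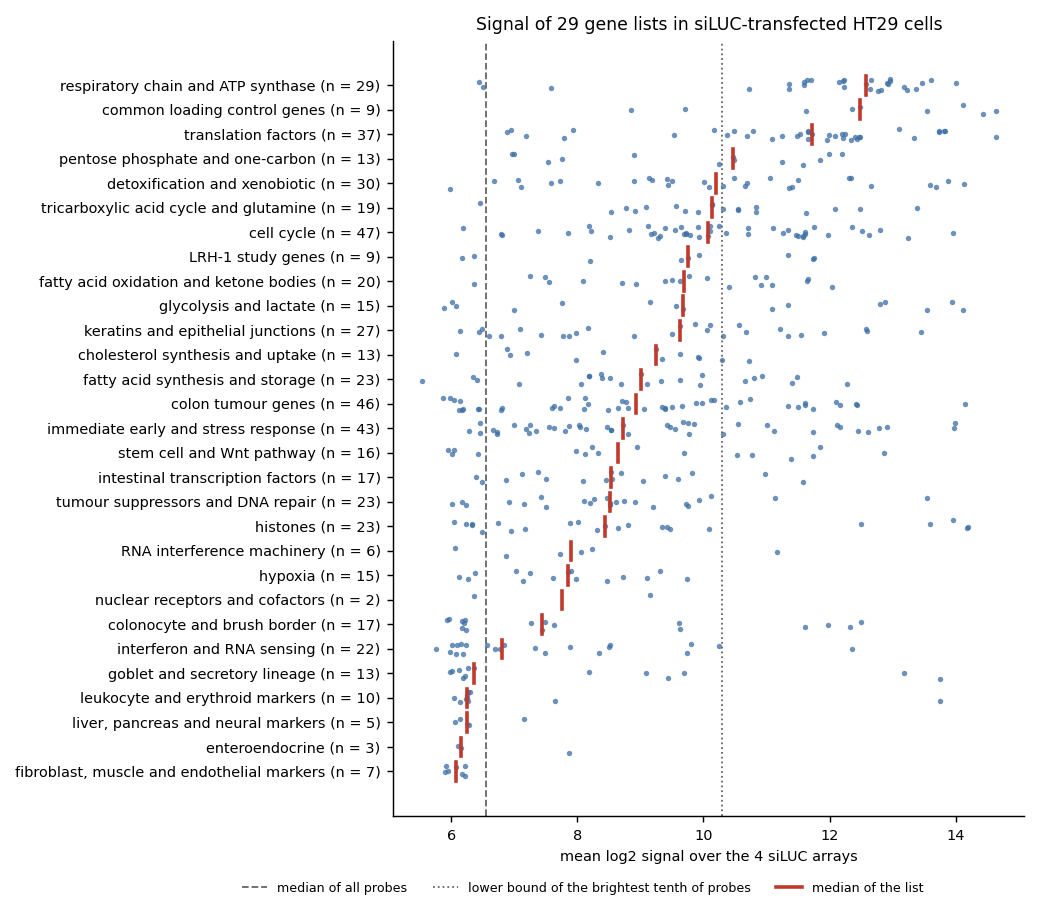
Mean log2 signal over the 4 siLUC arrays (x axis) of each measured gene in 29 gene lists (rows, ordered by their median). Points are genes, red bars are list medians, the dashed line is the median of all probes (6.55) and the dotted line is the start of the top 10% of probes (10.29). Respiratory chain genes lie furthest to the right with a median of 12.58, and fibroblast, muscle and endothelial markers furthest to the left with a median of 6.08.

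Colonocyte genes were split between bright and dim ones. Of 17 measured members, 4 (23.5%) were in the top 10% of probes and 10 (58.8%) above the median, and the median of the list was 7.43, against 7.41 over all 7331 genes. The bright members were ATP1B1, the beta subunit of the sodium pump (12.50 ± 0.04), EZR, which ties actin to the membrane of microvilli (12.32 ± 0.08), the intestinal galectin LGALS4 (11.98 ± 0.03) and the carbonic anhydrase CA2. CA2 had signals of 11.42, 11.70, 11.67 and 11.64, with replicate 1 the lowest. KRT20, a keratin of differentiated colon cells, had one of the tightest sets of values in the list, with 9.62, 9.65, 9.64 and 9.63. By contrast FABP1, the fatty acid binding protein of absorptive cells, had 6.19, 5.71, 5.96 and 5.87, and the peptide hormone gene GUCA2B had 5.99, 6.15, 5.84 and 5.91. The brush border phosphatase ALPI (6.20), GPA33 (6.22) and CA4 (6.17) were likewise below the median of all probes.

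Secretory genes were split in the same manner. Of 13 measured goblet and secretory genes, 2 (15.4%) were in the top 10% and 6 (46.2%) above the median, a smaller share than the 64.8% of all genes. Lysozyme (LYZ) had 13.67, 13.76, 13.83 and 13.77, and AGR2, an endoplasmic reticulum protein needed for making mucin, had 13.28, 13.20, 13.15 and 13.12. The iron-binding protein LCN2 (9.70 ± 0.10) and the membrane mucin MUC1 (9.09 ± 0.07) followed. The secreted gel-forming mucin MUC2, which defines goblet cells, lay at 6.01 ± 0.06, and CLCA1, MUC4, MUC5B and MUC12 lay between 5.98 and 6.27. LYZ was also the only member of the leukocyte list in the top 10%, and 8 of the 10 measured members of that list were below the median. In a bulk sample, a dim gene can stand for few cells that express it, for little RNA in each cell or for no RNA. It can also stand for a probe that binds weakly, and these cannot be told apart.

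Of 18 enteroendocrine genes, 3 had a named probe, with ISL1 at 7.87 ± 0.04, chromogranin A (CHGA) at 6.15 ± 0.09 and INSM1 at 6.10 ± 0.10. Of the 16 measured genes of stem cells and the Wnt pathway, 12 (75%) were above the median and 6 (37.5%) in the top 10%. AXIN2, a target and inhibitor of Wnt signalling, had 10.44, 10.64, 10.43 and 10.63, so that replicates 2 and 4 lay above replicates 1 and 3. CD24 (12.86 ± 0.08), CD44 (11.85 ± 0.03) and MYC (11.74 ± 0.09) were bright, while the stem cell receptor LGR5 was at 6.05 ± 0.05 and LEF1 at 5.94 ± 0.06. APC, the tumour suppressor that restrains Wnt signalling, had its only probe at 6.02 ± 0.10.

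Most transcription factors of the intestine lay in the middle of the scale. Of 17 measured, 15 (88.2%) were above the median and 2 (11.8%) in the top 10%, against 13.1% of all genes. Those in the top 10% were the pioneer factors FOXA1, with 11.61, 11.57, 11.56 and 11.57, and FOXA2, at 10.98 ± 0.08. FOXA3 averaged 9.04 ± 0.06, KLF4, a factor of differentiated cells, 8.54 ± 0.12 and HES1, a Notch target, 8.09. CDX2, the homeobox factor that sets intestinal identity, was dimmer at 6.86 ± 0.10, and GATA6 was at 6.39 ± 0.08. Of 52 listed nuclear receptors and cofactors, ESRRA (9.16 ± 0.11) and the steroid enzyme CYP11A1 (6.36 ± 0.05) had a named probe, and the others were not analysed here.

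Junction and keratin genes were bright as a group. Of 27 measured, 24 (88.9%) were above the median and 10 (37.0%) in the top 10%. CLDN2, a claudin that forms pores for cations in tight junctions, averaged 11.54 ± 0.08, the tight junction protein cingulin (CGN) 11.35 ± 0.10 and the cadherin partner CTNNA1 11.92 ± 0.11. CTNNA1 had 11.82, 11.82, 12.01 and 12.01, so that replicates 3 and 4 were above replicates 1 and 2. KRT7, a keratin that colon epithelium usually lacks, was at 6.14 ± 0.10, and the cadherin CDH3 was at 6.49 ± 0.12.

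Tumour genes followed. Of 46 measured colon tumour genes, 37 (80.4%) were above the median and 13 (28.3%) in the top 10%. The annexins ANXA2 (14.14 ± 0.11) and ANXA1 (12.44 ± 0.12), the adhesion molecule CEACAM6 (12.42 ± 0.07), the protease MMP7 (12.17 ± 0.07) and the survival factor BCL2L1 (12.11 ± 0.03) were brightest. The growth factor receptors ERBB3 (9.39), ERBB2 (8.64), FGFR3 (8.17), FGFR4 (8.12) and EGFR (8.10) had signals above the median, and MET had 9.98. The growth factor IGF2 (6.04 ± 0.08), FGF19 (5.98 ± 0.11) and AKT2 (5.87 ± 0.07) were at the lower end. The chemokine gene CXCL1 had 6.60, 6.54, 6.53 and 6.10, with replicate 4 apart from the others.

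Genes that p53 is known to activate were measured in cells whose own p53 is mutant. CDKN1A, which encodes the cell cycle inhibitor p21, had 8.37, 8.16, 7.98 and 8.31, an SD of 0.175. The highest of these was 1.31-fold the lowest. The apoptosis gene BAX was at 9.75 ± 0.03, GADD45A at 8.47, BBC3 at 6.92 ± 0.12 and MDM2, the ligase that degrades p53, at 6.17 ± 0.11. Of 19 genes that the study discusses, 9 were measured, and 7 of these were above the median. Among tumour suppressors and repair genes, 20 of 23 (87.0%) were above the median and 2 in the top 10%, MSH6 at 11.14 ± 0.06 and MSH3 at 13.54 ± 0.11. MSH3 had a second probe at 7.94, so its place depends on the probe.

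Energy metabolism gave the brightest list. Of 29 measured genes of the respiratory chain and ATP synthase, 26 (89.7%) were in the top 10% of probes, against 13.1% of all genes, and the list's median was 12.58. ATP5F1B, the catalytic beta subunit of ATP synthase, averaged 14.01 ± 0.11, with replicate 4 the highest at 14.16. The cytochrome c oxidase subunits COX7C (13.61 ± 0.08), COX8A (13.47 ± 0.06), COX4I1 (13.23 ± 0.04) and COX5A (13.19 ± 0.08) were close behind. The 3 members outside the top 10% were ATP5MC3 (7.58 ± 0.03), the complex I subunit NDUFB4 (6.51 ± 0.21) and CYCS, which encodes cytochrome c (6.45 ± 0.03). NDUFB4 was the most variable of the list, with 6.80, 6.50, 6.42 and 6.31. As 29 of the 74 listed genes had a named probe, the list covers these members only.

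Glycolysis held a bright core and a dim edge. Of 15 measured genes, 7 (46.7%) were in the top 10% and 12 (80%) above the median. LDHA, which turns pyruvate into lactate, had 14.08, 14.19, 14.12 and 14.10. ENO1 had 13.91, 13.96, 13.98 and 13.93, and GAPDH had 13.37, 13.57, 13.57 and 13.65. The neuronal enolase ENO2 (6.01 ± 0.12), the gluconeogenic phosphatase G6PC1 (6.08 ± 0.07) and the phosphofructokinase PFKP (5.89 ± 0.09) lay below the median. Among hexokinases, the probe of HK1 averaged 11.35 ± 0.05 and that of HK2 9.16 ± 0.13.

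The tricarboxylic acid cycle and glutamine list had 9 of 19 (47.4%) in the top 10% and 18 above the median. The malate dehydrogenases MDH2 (13.39 ± 0.09) and MDH1 (12.09 ± 0.06) and citrate synthase CS (12.49 ± 0.06) were brightest. Glutamine synthetase GLUL, at 6.46 ± 0.05, was the single member below the median. GLUD1, which feeds glutamate into the cycle, had 10.88, 10.80, 10.83 and 10.80. All 13 measured genes of the pentose phosphate, folate and nucleotide list were above the median and 7 (53.8%) were in the top 10%, led by AHCY (12.21 ± 0.06), MAT2A (11.99 ± 0.05) and ATIC (11.85 ± 0.09). DHODH, an enzyme of pyrimidine synthesis, was at 7.00 ± 0.07.

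The lipid lists had smaller shares in the top 10% of probes than the glycolysis, tricarboxylic acid cycle and pentose phosphate lists. For fatty acid synthesis and storage, 6 of 23 (26.1%) were in the top 10% and 20 (87.0%) above the median. FASN, the fatty acid synthase, had 12.33, 12.23, 12.29 and 12.25. The enzymes that supply it, ACLY (10.93 ± 0.02) and ACACA (10.66 ± 0.03), had some of the smallest spreads among lipid genes. ELOVL5, at 5.54 ± 0.09, and the triglyceride enzyme DGAT2, with 6.19, 6.59, 6.33 and 6.30, were below the median. For cholesterol, 12 of 13 (92.3%) were above the median but only ACAT2 (10.72 ± 0.05) was in the top 10%. ACAT2 had a second probe at 6.22, so its place depends on the probe. HMGCS1, which makes the HMG-CoA from which cholesterol is built, had 10.30, 10.26, 10.39 and 10.20 and lay just below the start of the top 10%. The cholesterol exporter ABCA1 was at 6.07 ± 0.12. For fatty acid oxidation, 8 of 20 (40%) were in the top 10%, with the electron carrier ETFA at 12.05 ± 0.08 and the thiolase ACAT1 at 11.66 ± 0.10, and 19 were above the median.

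Detoxification genes were among the brightest. Of 30 measured, 15 (50%) were in the top 10% and 29 (96.7%) above the median. GPX2, the glutathione peroxidase of the gut epithelium, had 14.05, 14.20, 14.15 and 14.15, and the aldo-keto reductases AKR1B10 (13.87 ± 0.08) and AKR1C3 (13.59 ± 0.04) and the glutathione transferase GSTP1 (13.68 ± 0.10) followed. AKR1C3 belongs to a family of closely similar genes, so its probe may also read relatives. ABCB1, the drug efflux pump, was the only measured member below the median, with 5.90, 5.85, 6.21 and 5.99. CYP3A5, a drug-metabolising P450 that was in no list, was one of the most variable bright genes with 9.10, 8.70, 8.61 and 8.65, where replicate 1 lay apart from the other 3.

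Cell cycle genes were bright as a group. Of 47 measured, 46 (97.9%) were above the median and 20 (42.6%) in the top 10%, and the exception was CCND2 at 6.20 ± 0.08. The cyclin-dependent kinase partners CKS1B (13.24 ± 0.08) and CKS2 (12.80 ± 0.10), the helicase subunit MCM7 (12.62 ± 0.07), the mitotic activator CDC20 (12.51 ± 0.07) and the flap nuclease FEN1 (12.36 ± 0.05) led. Among cyclins, CCNB2 averaged 11.75 ± 0.05, CCND1 11.34 ± 0.04, CCNB1 9.93 ± 0.09 and CCNE1 9.64 ± 0.08. CCND3 was the most variable member, with 11.87, 11.43, 11.46 and 11.69, and replicates 1 and 4 above replicates 2 and 3. MKI67, the gene of the proliferation antigen Ki-67, had 6.75, 6.81, 6.73 and 6.89, close to the median of all probes. CCAAT, a short promoter motif looked for on both strands in the 300 bases from 250 before to 50 after the RefSeq start site, stood in 25 of 40 cell cycle promoters with a sequence (62.5%), against 35.7% of all 27305 promoters. The motif was not particular to this list. The share was higher in some lists, such as histones (18 of 22, 81.8%). It was lower in others, such as fatty acid oxidation (3 of 17, 17.6%). The first RefSeq window of each gene was used, and none of the motifs searched is contained in another.

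Histone signals ran over the whole scale. Of 23 measured, 5 (21.7%) were in the top 10%, 18 (78.3%) above the median and 5 below it. H4C3 had 14.25, 14.15, 14.16 and 14.20, the variant H3-3A had 14.15, 14.18, 14.23 and 14.18, and the variant H2AZ1 had 13.98, 13.92, 13.85 and 14.07. H1-3, H3C10, H1-1 and H4C8 lay between 6.04 and 6.33. Histone genes are near-identical copies, and the mRNAs of the replicating class lack the tail of adenines by which many labelling protocols start, so single members are uncertain. Promoter windows were found for 22 of the 23, and 14 of these (63.6%) held TATAAA on the gene's strand between 40 and 15 bases before the start, against 2.54% of all promoters. The 14 genes with the motif had signals between 6.04 and 13.95 and the 8 without it between 6.33 and 14.18, so the signal did not separate them. The windows from 60 bases before the start to 20 from it are shown for 3 histone genes with the motif, in capitals, and for H3-3A without it.
H2BC12 (signal 12.51 ± 0.05, chr6:27146839-27146918, minus strand): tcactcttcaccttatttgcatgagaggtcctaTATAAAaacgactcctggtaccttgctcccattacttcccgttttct
H2BC5 (9.46, chr6:26158061-26158140, plus strand): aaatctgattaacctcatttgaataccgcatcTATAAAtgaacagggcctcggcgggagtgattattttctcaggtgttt
H2AZ1 (13.95 ± 0.09, chr4:99950256-99950335, minus strand): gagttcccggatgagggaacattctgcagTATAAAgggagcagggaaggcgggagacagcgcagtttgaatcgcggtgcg
H3-3A (14.18 ± 0.03, chr1:226061771-226061850, plus strand): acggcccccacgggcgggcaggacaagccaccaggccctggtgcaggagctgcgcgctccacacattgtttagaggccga
The sequences and positions are from RefSeq on GRCh38.p14, and the deposited table gives no positions of its own.

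Translation factors were bright as a group. All 37 measured members were above the median and 30 (81.1%) were in the top 10%. EEF1A1, which brings aminoacyl-tRNA to the ribosome, was the brightest probe of all with 14.72, 14.55, 14.72 and 14.55. Its values in replicates 1 and 3 are equal because quantile normalization gives the same value to the same rank. The helicase EIF4A1 (13.82 ± 0.09), EEF1B2 (13.81 ± 0.06) and EIF3E (13.73 ± 0.10) were next, while the cap-binding protein EIF4E, the limiting factor of initiation, had its brighter probe at 7.19 ± 0.04 and its inhibitor EIF4EBP1 was at 6.89 ± 0.06. EIF1AX was the most variable, with 11.64, 11.24, 11.54 and 11.50.

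Many mRNAs of the translation machinery start with a cytosine followed by a run of pyrimidines, known as a TOP start. A C at the RefSeq start followed by at least 4 pyrimidines was read on the gene's strand only. It was found in 73 of 788 genes of the top 10% with a promoter window (9.26%), in 147 of 3131 genes between the median and the top 10% (4.69%), and in 4.04% of all 27305 promoters. Among translation factors, windows were found for 29 of 37, under the 80% set as a minimum, so no share is given for that list. EEF1A1, EEF2 (12.48 ± 0.04) and EIF4B (11.24) were among the genes with this start, and FAU, which encodes a ribosomal protein fused to a ubiquitin-like one, had a signal of 13.65. The start and its pyrimidine run are in capitals in the same windows of these 4 genes, which were chosen after their values were seen.
EEF1A1 (chr6:73521013-73521092, minus strand): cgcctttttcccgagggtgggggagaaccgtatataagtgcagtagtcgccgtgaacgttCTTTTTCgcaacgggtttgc
EEF2 (chr19:3985444-3985523, minus strand): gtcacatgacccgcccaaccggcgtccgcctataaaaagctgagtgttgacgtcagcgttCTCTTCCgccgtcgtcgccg
EIF4B (chr12:53006396-53006475, plus strand): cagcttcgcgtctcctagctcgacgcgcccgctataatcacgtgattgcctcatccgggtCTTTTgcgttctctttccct
FAU (chr11:65122115-65122194, minus strand): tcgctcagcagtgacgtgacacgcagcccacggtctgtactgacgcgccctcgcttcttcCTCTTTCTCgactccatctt

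Stress and immediate early genes had 40 of 43 (93.0%) above the median and 13 (30.2%) in the top 10%. The chaperones HSPA8 (13.98 ± 0.04), HSP90AA1 (13.97 ± 0.05) and HSPH1 (12.90 ± 0.06) led, and the amino acid response factor ATF4 averaged 12.16. Among immediate early genes EGR1 averaged 9.68, JUN 9.75 and FOS 7.81. JUNB had 6.44, 6.82, 6.79 and 6.87, with replicate 1 the lowest. TATAAA stood at the place described for histone genes in 10 of the 35 promoters found for this list (28.6%). The share was 2.54% over all promoters, 63.6% among histones and 2.5% among cell cycle genes. Hypoxia genes had 0 of 15 in the top 10% and 12 (80%) above the median, led by the factor EPAS1 (9.73 ± 0.05) and the peptide gene ADM (9.31 ± 0.03), with HIF1A at 7.89 ± 0.14.

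Genes that sense double-stranded RNA or answer interferon were measured because all these cells had received an RNA duplex. Of 22, 14 (63.6%) were above the median, against 64.8% of all genes, and 1 was in the top 10%, the antigen-presenting light chain B2M (12.36 ± 0.06). The kinase EIF2AK2, which binds double-stranded RNA, had 9.72, 9.65, 9.82 and 9.76, and ISG15 had 10.31, 10.28, 10.17 and 10.26. The interferon-induced genes IFIT1 (5.76 ± 0.19), IFI44 (5.98 ± 0.10) and IFIT3 (6.07) and the RNA sensor RIGI (6.02 ± 0.08) lay below the median. Among the RNA interference genes, AGO2, which cuts mRNA under the guide of a small RNA, was at 11.17 ± 0.07, DICER1 at 8.23 ± 0.09, DGCR8 at 8.06 ± 0.07 and AGO1 at 7.73 ± 0.13, and 5 of the 6 measured were above the median.

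The probes used for genes that often serve as loading controls differed in their spread. All 9 measured genes were above the median. ACTG1 and ACTB, the cytoplasmic actins, had SDs of 0.03 and 0.04, EEF2 0.04, and HPRT1 and B2M 0.06. EEF1A1 had 0.09 and GAPDH 0.12, with the lowest GAPDH signal in replicate 1. GAPDH had 3 named probes, and these values are of the probe used. The highest GAPDH array was 1.22-fold the lowest, against a median of 1.13-fold over all genes. The median SD was 0.0685 among the probes in the top 10%.

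The spread between replicates was smaller for brighter probes. The median SD was 0.0984 among the dimmest 10% of probes, 0.0685 among the brightest 10% and 0.0785 above the median. Of all probes, 176 (1.07%) had a range over the 4 arrays of at least 0.5, and 2 had a range of at least 1. Among the 4750 genes above the median, 22 (0.463%) had a range of at least 0.5. Probes that were wide in siLUC were wide in the other groups more often than all probes were, though most were not. Of the 176 probes, 11 (6.25%) also had a range of at least 0.5 over the siLRH-1 #1 arrays, which is 5.64% of the 195 such probes there, where these made up 1.19% of all probes. Over the siLRH-1 #2 arrays 30 (17.0%) did, which is 9.55% of 314, where the share of all probes was 1.92%. Over the 3 arrays of siLRH-1 #2 without replicate 2, the shared probes were 21 (11.9%), or 21.4% of 98. The share of all probes was then 0.598%. Across the 16381 probes the SDs had a Spearman's rho of 0.12 between siLUC and siLRH-1 #1 and of 0.16 between siLUC and siLRH-1 #2. The deviations of different probes of the same gene were nearly unrelated, with r = 0.093 over 4568 points of 1142 genes whose 2 brightest probes were above the median. These correlations share arrays and levels and are given without a p.

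**Figure D2:**
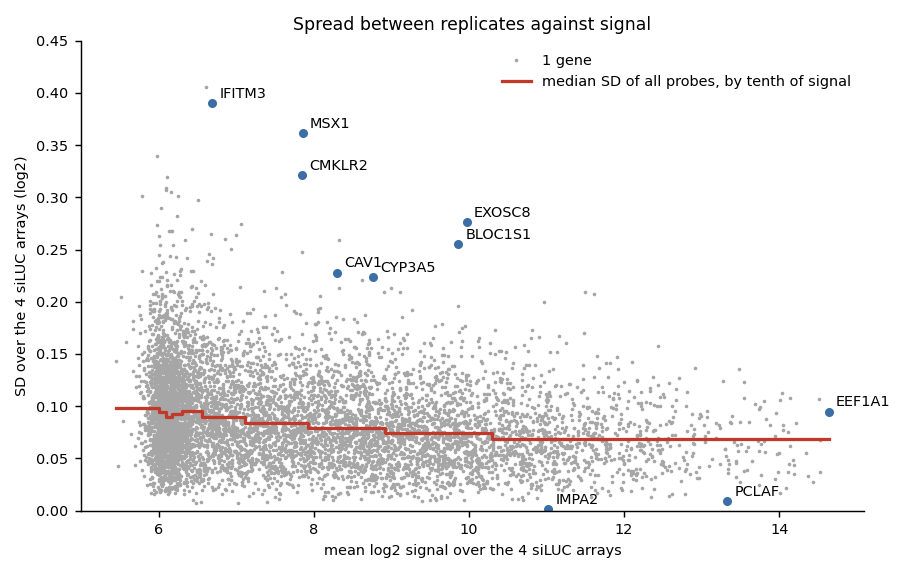
SD over the 4 siLUC arrays (y axis, log2) against the mean log2 signal (x axis) for 7331 genes, with the median SD of all probes in successive bins of 10% of the probes as a red line. The line runs from 0.0984 at the dim end to 0.0685 at the bright end, and MSX1 and IFITM3 lie far above it.

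The widest named genes above the median were of many kinds. An uncharacterised gene, LOC105371763, had 6.31, 6.56, 6.39 and 7.20, which was the largest SD (0.406), with replicate 4 apart. IFITM3, an interferon-induced membrane protein, had 6.99, 6.32, 6.40 and 7.07 (SD 0.390). MSX1, a homeobox factor, had 8.14, 7.64, 7.46 and 8.19 (SD 0.361), and in both of these genes replicates 1 and 4 were above replicates 2 and 3 with no overlap. The receptor CMKLR2 had 7.93, 7.44, 8.22 and 7.81, with replicate 2 lowest. Among bright genes, the RNA exosome subunit EXOSC8 had 9.94, 10.35, 9.68 and 9.93 and the lysosome-related BLOC1S1 had 10.17, 9.90, 9.83 and 9.54. At the other end, the inositol phosphatase IMPA2 had 11.02, 11.02, 11.02 and 11.02, and its highest array was 1.002-fold its lowest. PCLAF, a replication factor that binds PCNA, had 13.32, 13.32, 13.34 and 13.32, and the kinase CDK7 had 10.70, 10.71, 10.68 and 10.71.

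A group of genes shared the pattern of high replicates 1 and 4. The group was found without the siLUC arrays, as the 53 probes (47 named, 43 genes) that were at least 0.5 higher in replicate 2 of siLRH-1 #2 than in every one of the 7 other siLRH-1 arrays. In the siLUC arrays, replicates 1 and 4 were the 2 highest for 43 of these 53 probes (81.1%), against 14.5% of all 16381 probes. The 53 probes were noticed after the values were seen, and most were dim, with 41 below the median and 12 above it. Of those 12, 11 had replicates 1 and 4 highest. Their median SD over the siLUC arrays was 0.162, against 0.0859 over all probes. The median difference from the siLUC mean was 0.14 in replicate 1, -0.10 in replicate 2, -0.14 in replicate 3 and 0.11 in replicate 4, each of which is small beside the 1.08 in replicate 2 of siLRH-1 #2.

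Genes of this group that were bright enough to follow had varied roles. Besides MSX1 and IFITM3, CAV1, the coat protein of caveolae, had 8.37, 8.07, 8.16 and 8.58. CDKN1A, described above, is a member, as are KLF2, a factor of quiescent cells, with 7.25, 6.99, 7.12 and 7.39, and ALDH1A3, a retinoic acid enzyme, with 7.23, 7.02, 6.88 and 7.22. The actin-binding calponin CNN3 had 6.84, 6.30, 6.21 and 6.67. The small non-coding RNA SNAR-A1, one of a family of near-identical copies, had 11.68, 11.34, 11.29 and 11.68, and the metallothionein MT1E had 10.47, 10.31, 10.46 and 10.68, where replicates 1 and 3 hardly differed. AXL, BDNF, GAL and HSPA12A belonged to the group with signals below 6. In the other groups the median difference of the 53 probes was 0.15, 0.12, 0.14 and -0.07 in siLRH-1 #1 replicates 1 to 4, and 0.11, -0.05 and 0.12 in siLRH-1 #2 replicates 1, 3 and 4. The level of siLUC replicates 1 and 4 was thus that of 5 of these 7 arrays, and siLUC replicates 2 and 3 were the lowest of the 12. The source of these differences was not tested.

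**Figure D3:**
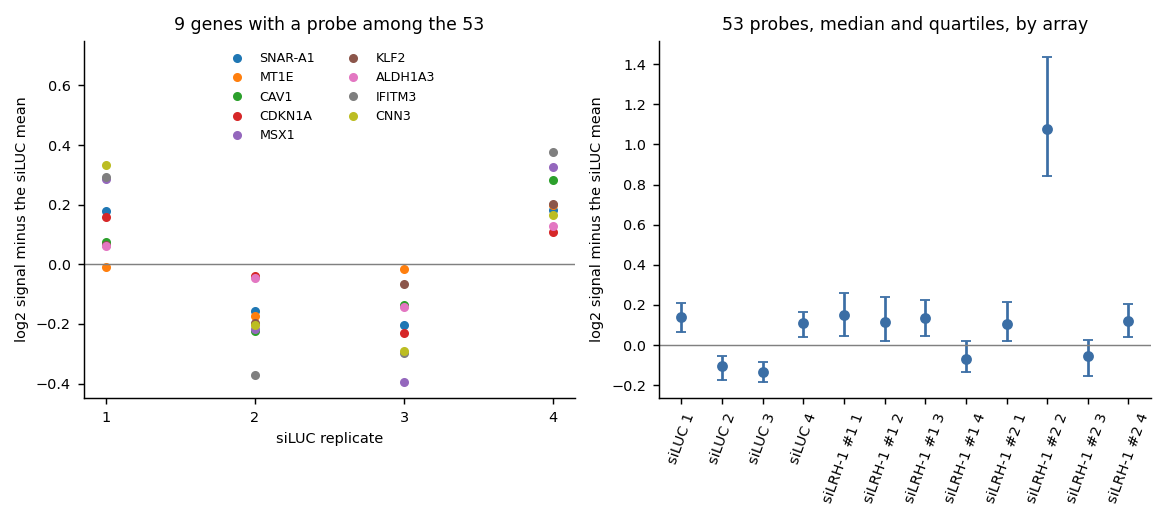
Left: log2 signal minus the siLUC mean (y axis) in siLUC replicates 1 to 4 (x axis) for 9 genes, 1 colour each. Right: median and quartiles (bars) of the same difference over the 53 probes in each of the 12 arrays. In siLUC, the medians are 0.14, -0.10, -0.14 and 0.11, and replicate 2 of siLRH-1 #2 stands apart at 1.08.

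Different probes of the same gene often had unlike signals. Of the 7331 genes, 5462 had 1 named probe and 1869 had several. Among these the gap between the probe used and the dimmest one had a median of 1.09, was at least 1 in 971 genes (52.0%), at least 2 in 555 (29.7%) and at least 4 in 128 (6.85%). The gap was largest for CLUAP1, a cilium protein, whose probe used averaged 14.34 and whose dimmest of 5 averaged 6.50. CCR6, a chemokine receptor of lymphocytes, had 13.44 and 6.38, and the metabolic genes LDHA and ALDOA had 14.12 and 7.32, and 12.88 and 6.31. The 3 probes of ACTB, by contrast, lay between 13.83 and 14.11. Bright signals under symbols of leukocyte genes, such as LAIR1 (14.51 ± 0.11) and CLEC2D (14.11 ± 0.07), or of pseudogenes, such as RPL13AP5 (14.52 ± 0.07), therefore stand for the probe as the dated platform annotation names it. Pseudogene and parent transcripts are near-identical and cannot be told apart here.

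**Figure D4:**
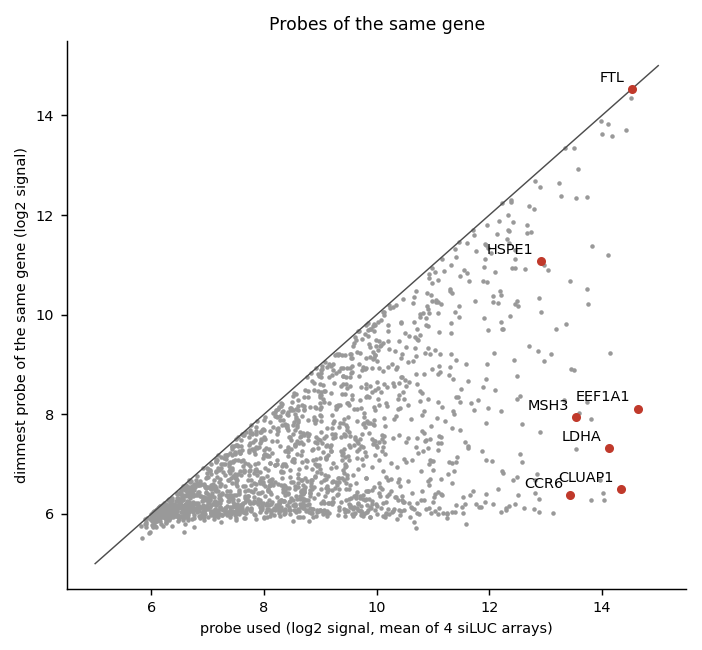
Mean log2 signal over the 4 siLUC arrays of the dimmest probe (y axis) against that of the probe used (x axis) for 1869 genes with several probes, with the line of equal signals. FTL, the ferritin light chain, lies on the line because its probe used (14.53) was the dimmer one in the siLUC arrays, and CLUAP1, with 14.34 and 6.50, lies furthest from it.

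HSPE1, the mitochondrial co-chaperone of HSPD1, had the widest probe of all. Its dimmer probe had 11.28, 11.72, 10.02 and 11.26 in the siLUC arrays, so that replicate 3 lay more than 1 below each of the others. The same probe had 11.17, 10.33, 11.12 and 10.17 in siLRH-1 #1 and 11.30, 11.58, 11.24 and 10.18 in siLRH-1 #2. The 12 values thus fell into 4 between 10.02 and 10.33 and 8 between 11.12 and 11.72, with members of both levels in each group. The brighter probe of HSPE1 had 13.03, 12.88, 13.00 and 12.73 in the siLUC arrays and showed no such split. The partner HSPD1, the large chaperonin subunit, had 14.09, 13.98, 13.96 and 14.13.

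**Figure D5:**
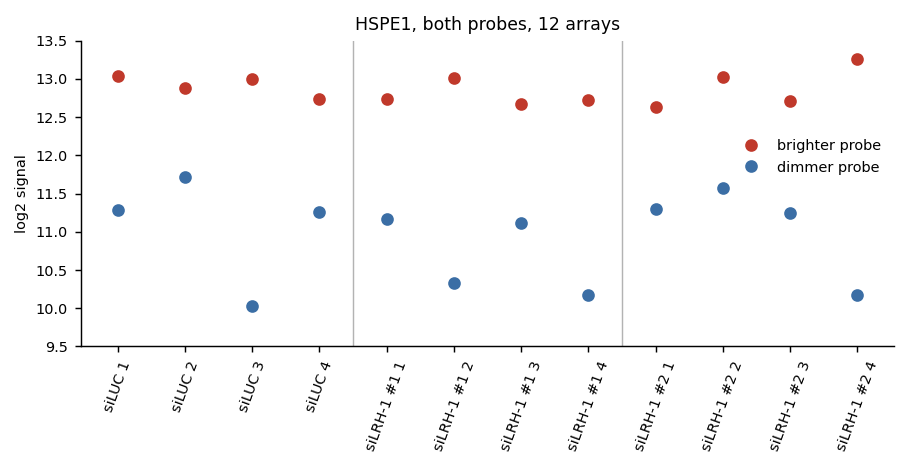
Log2 signal (y axis) of both HSPE1 probes in the 12 arrays (x axis, siLUC at the left). The dimmer probe is at 10.02 in siLUC replicate 3 and between 11.26 and 11.72 in the other 3 siLUC arrays, while the brighter probe stays between 12.73 and 13.03 there.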

How the data were processed

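Per the study's methods and the labels, the authors read the BeadChip images in GenomeStudio, dropped probes with a detection p above 0.05 in all samples, and deposited log2 signals after quantile normalization. The submitters' processing notes name GenomeStudio and Partek without a version. The deposited log2 values were used as they are. A second table of signals before normalization and detection p-values, with 24 columns that match no label, was not used. Probes were named through the platform annotation and gene IDs in RefSeq (9746 probes matched, 0 symbols updated). Means, SDs, ranges and the percent of probes below a signal were computed with Python 3.11.15, pandas 2.3.3 and numpy 2.4.6, and the functions were tested on simulated data. Spread and 53 probes were set beside the siLRH-1 arrays as a description, no difference between groups was tested, and Dixon's outlier test was run on the named genes. The number of arrays limits the precision.

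The array group, the 29 gene lists and the settings were chosen with earlier results of these data known. The named genes (304) were, from each list, up to 6 with the highest mean, 3 with the lowest and 3 with the largest SD, plus the 20 brightest genes, the 20 with the largest and the 10 with the smallest SD above the median of all probes, and the measured genes that the study discusses. Members named beyond these were chosen after their values were seen. Alternatives were leaving out each array, other normalizations, other probes of a gene and another median.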

Additional observations from a re-analysis of the deposited data

Results flagged for a closer look

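In 7 of the 304 named genes (2.30%), 1 siLUC array lay apart from the other 3 by more than Dixon's 95% critical value allows. Chance flags about 1 in 20 groups of 4, which is more often than was seen here. ETFB, an electron carrier of fatty acid oxidation, had 10.85 in replicate 1 and 11.03 in the other 3. CXCL1 had 6.10 in replicate 4, against 6.53 to 6.60 in the others, and DLD, a subunit of pyruvate dehydrogenase, had 9.89 in replicate 4, against 9.63 to 9.66. DGCR8, which processes microRNA precursors, had 7.95 in replicate 2 and 8.08 to 8.11 elsewhere, and the silencing factor TNRC6C had 6.19 in replicate 4 and 6.01 to 6.03 elsewhere. CLEC2D had 13.998 in replicate 2, against 14.13 to 14.16. HBA2, an alpha globin gene, had 6.45 in replicate 1, against 6.20 to 6.23, all below the median of all probes.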

How the results depend on the processing

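The median SD stayed within 1.5 times its value under all 7 alternatives. The means of all 304 named genes moved by less than their SD when the 4 arrays were normalized alone. Leaving out 1 of 4 arrays cannot move a mean by as much as its SD, so that setting could not show a dependence. Averaging the probes of a gene moved 89 of the 304 by at least their SD. Genes with 1 named probe cannot move under this setting, so the share among named genes with several probes is larger. The count of probes with a range of at least 1 was 0 to 2 with an array left out, against 2, and that with a range of at least 0.5 was 90 to 113, against 176. It was 48 among probes above the median, which are fewer by construction. Over the siLRH-1 #2 arrays, leaving out replicate 2 gave 98 probes with a range of at least 0.5, against 314. Of the 176 siLUC probes, 11.9% were among them, against 17.0%. A range over 3 arrays cannot exceed that over all 4, so these counts fall by construction too. Shares of a list above the median moved beyond the 95% exact binomial interval in 4 cases. With the dimmest probe of each gene, tumour suppressors and repair genes came to 56.5% and translation factors to 89.2%. Against the median of the named genes, stress and immediate early genes came to 74.4% and liver, pancreas and neural markers to 0%. The intervals are wide for lists this short, so a share that stayed inside its interval was not thereby stable. Against the same median, interferon and RNA sensing genes fell from 63.6% to 40.9% and cholesterol genes from 92.3% to 69.2%, both inside their intervals. In the 53 probes, the share with replicates 1 and 4 highest was 94.1% for those raised by at least 1 (17 probes), 91.7% for those above the median and 77.8% with 1 probe a gene, settings that were chosen after seeing the data. Same-numbered arrays did not deviate together, with a mean r of 0.06 between siLUC and siLRH-1 #1 and -0.13 between siLUC and siLRH-1 #2, or -0.10 among probes above the median. The single correlations of same-numbered arrays over all probes lay between -0.15 and 0.18. No paired analysis was made because no difference between groups was tested. The labels number the replicates and do not say whether equal numbers mark a shared run. Dim signals near 6 were not separated from background here.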
